A study of Mus musculus with 17 samples.

Results

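The response common to both textured surfaces was measured in E11 cells, a mouse podocyte line, as the average of round topography and high fractal topography minus a flat surface. All 17 libraries of the series entered: 12 from textured silicone, which are the 6 on round topography (RT) and the 6 on high fractal topography (HF), and 5 from silicone with no topography (NT). Each textured surface was given equal weight, and all expressed genes were tested, 15196 of the 56748 in the table. Every group was the same cell line on polydimethylsiloxane (PDMS, a silicone), with no treatment, genotype or time point named in the labels; NT is the control without any topography, RT is a textured control that is not fractal, and HF copies outlines traced from healthy glomeruli in tissue sections. The series title names podocyte maturation as its subject, and the pooled contrast asks what a textured surface of either kind changes relative to a flat one. E11 is a single cultured line, so the libraries hold no other glomerular cells by design, and the labels do not say whether replicates are separate cultures, substrates or days.

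Podocytes are the epithelial cells whose foot processes wrap the glomerular capillaries and are held in shape by actin, by integrins that bind the basement membrane, and by the slit diaphragm between neighbouring processes. Cells sense the shape and stiffness of a surface through integrins and actin tension; actin assembly frees the coactivator MRTF to act with the transcription factor SRF on cytoskeletal genes, and tension lets YAP and TAZ act with TEAD factors. Growth factor receptors signal through ERK to immediate early genes, which respond within minutes and are followed by feedback inhibitors, while interferons act through their receptors and IRF factors on antiviral and antigen presentation genes.

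Each library held between 14.9 and 24.1 M counts, and totals averaged 18.2 ± 2.57 M in the textured libraries (SD, n = 12) and 16.7 ± 1.37 M in the flat ones (SD, n = 5). Textured libraries had 22397 genes with a count on average and flat libraries 22043 (exact two-sided permutation p = 0.0326, adjusted p = 0.0653 over 4 measures). Counts from mitochondrially encoded genes took 2.18% ± 0.0506 of the textured and 2.31% ± 0.148 of the flat libraries (exact permutation p = 0.0155, adjusted p = 0.0621). For total counts and the share of the 10 largest genes the adjusted p was 0.277 each in exact permutation tests, and none of the 4 measures passed after adjustment. Because these are bulk libraries, fewer cells of a kind and less RNA per cell cannot be told apart. The libraries were not directional, so reads from genes that overlap on opposite strands cannot be separated either.

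On textured surfaces 11 of 26 contractile SRF and MRTF targets, 6 of 28 immediate early genes and 5 of 21 basement membrane genes rose. Among the genes that fell were 14 of 40 type I interferon genes, 9 of 15 interferon-inducible GTPases, 5 genes of the MHC class II pathway and Wt1, a transcription factor of podocytes. Of 15196 genes tested, 667 passed an adjusted p of 0.05 by edgeR's quasi-likelihood test, which is 4.39% of them; 411 rose (2.70%) and 256 fell (1.68%). The changes were small. The median size among the 667 genes was 1.16-fold, and 90 of them changed by at least 1.5-fold. A value after ± beside a log2 fold change is its standard error, and CPM are counts per 1 M counts of a library. Large changes were mostly rises, with 69 rises and 21 falls of at least 1.5-fold and 32 rises and 2 falls of at least 2-fold. A gene seen only on textured surfaces has 12 libraries with which to pass the expression filter, and one seen only on flat has 5. Weak genes that rise thus enter more easily, and 23 rises and 9 falls lay under an average log2 CPM of 1. How far this shaped the balance of large changes was not tested. In 94 genes (0.619% of those tested) all 12 textured libraries lay above all 5 flat ones, and in 41 genes (0.270%) all 12 lay below; 89 and 39 of these were among the genes that rose and fell. The number of calls leaned on single flat libraries. It was 387 without NT 3 (249 rose, 138 fell), and without NT 5 it was 925 with 431 falls.

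The genes called on the average of RT and HF were then taken apart by texture. Among the 411 genes that rose, the median log2 fold change was 0.25 for RT minus NT and 0.22 for HF minus NT, and among the 256 that fell it was -0.18 for each; both differences use the same NT libraries, and the genes were chosen on their average. The direct contrast of HF minus RT does not use NT. In it, 32 of 15196 genes passed (0.211%), and 11 of these were among the 667 genes called in the pooled contrast. At an unadjusted p under 0.05, 137 of the 667 differed between the textured surfaces, beside 1216 of all 15196. The median HF minus RT difference was -0.03 among the rises and 0.02 among the falls on the log2 scale. HF lay below RT in 60.3% of the genes that rose, in 41.0% of those that fell and in 50.4% of all genes tested.

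**Figure D1:**
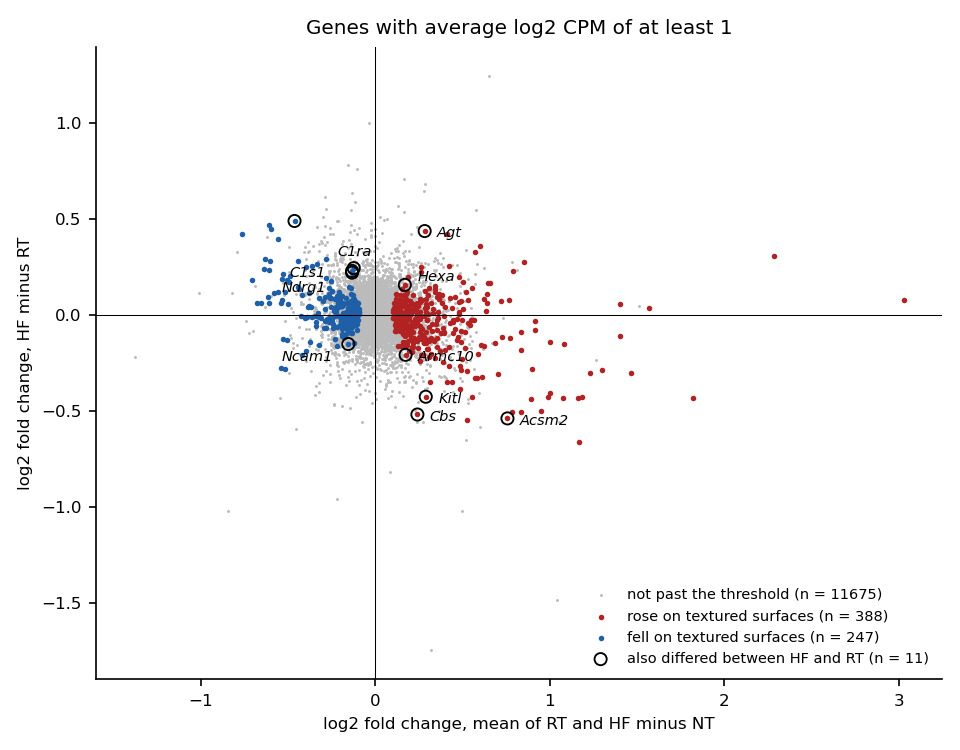
Log2 fold change of textured minus flat (x axis) against log2 fold change of HF minus RT (y axis), 1 point for each tested gene at or above 1 in average log2 CPM. Red and blue points rose and fell on textured surfaces, and the 11 circled genes, 10 of them labelled, also differed between HF and RT. Most coloured points lie near 0 on the y axis, and the rises reach further from 0 than the falls.

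The genes that passed both tests, 10 of which are described, are cases in which an average over textures hides a difference. Other called genes may also differ between RT and HF without passing the adjusted threshold. Agt, the precursor of the angiotensins, stood at 55.7, 53.8, 55.2, 59.9 and 63.7 CPM in NT 1 to NT 5, at 52.8 to 66.5 CPM (median 61.5) in RT and at 72.9 to 92.1 CPM (median 81.7) in HF. RT overlapped the flat libraries and all 6 HF libraries lay above them, with HF minus RT at 0.44 ± 0.06 on the log2 scale (adjusted p = 0.000651). Hexa, a lysosomal hexosaminidase subunit, was the other rise that was higher on HF, by 0.16 ± 0.03 (adjusted p = 0.0334). The rises that were higher on RT were Acsm2 (a medium-chain acyl-CoA synthetase of kidney), Kitl (the ligand of the receptor Kit), Cbs (cystathionine beta-synthase, which makes cystathionine from homocysteine) and Armc10, with HF minus RT of -0.54, -0.43, -0.52 and -0.21 on the log2 scale. Cbs stood at 15.8, 19.4, 18.1, 16.9 and 19.3 CPM in the flat libraries, at 21.1 to 28.8 CPM (median 25.2) in RT and at 16.3 to 20.2 CPM (median 16.6) in HF. All 6 RT libraries exceeded all flat ones, and HF overlapped the flat range. RT minus NT was 0.50 and HF minus NT -0.02 for Cbs, 0.06 and 0.50 for Agt, and 1.03 and 0.49 for Acsm2, with the same NT libraries in each pair.

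Among the falls, the complement proteases C1ra and C1s1 and the stress-responsive gene Ndrg1 were lower on RT than on HF. HF minus RT was 0.24 for C1ra, 0.22 for C1s1 and 0.23 for Ndrg1. RT minus NT was -0.25, -0.24 and -0.25 for these 3, and HF minus NT -0.0022, -0.02 and -0.02. Ncam1, a neural cell adhesion molecule also present in early nephron epithelium, went the other way, with 298, 311, 310.3, 313 and 319 CPM in NT, 289 to 296 CPM (median 294) in RT and 257 to 279 CPM (median 263) in HF; all 12 textured libraries lay below the flat ones, and HF lay below RT (HF minus RT -0.15, adjusted p = 0.0109). The pooled calls of Cbs, Kitl, C1ra and C1s1 ended when any of several libraries was left out (highest adjusted p 0.383, 0.133, 0.401 and 0.339), and those of Agt, Armc10 and Ndrg1 ended when RT and HF were given 1 common mean. Part of the C1ra transcript occurs in other genes (35.9% of 100-base windows), and C1s1 shares 18.4% of its exonic bases with another gene.

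Slc6a18, Havcr1, Cyp2j5 and Ggt1, known from kidney tubules, were among the 12 largest rises. Slc6a18, which carries neutral amino acids across the proximal tubule's apical membrane, stood at 0.680, 1.90, 0.966, 0.471 and 0.521 CPM in NT 1 to NT 5, at 2.62 to 10.8 CPM (median 6.77) in RT and at 2.70 to 13.7 CPM (median 6.36) in HF. Every textured library lay above every flat one, although the highest flat library (NT 2) and the lowest RT library differed by less than 1 CPM, and the log2 fold change was 3.03 ± 0.53 (adjusted p = 0.00408). By limma voom its adjusted p was 0.0625. Havcr1, also called kidney injury molecule 1 and a phosphatidylserine receptor of injured proximal tubule, stood at 4.45, 5.21, 2.63, 3.23 and 3.07 CPM in the flat libraries, 7.96 to 22.2 CPM (median 16.4) in RT and 13.0 to 29.8 CPM (median 17.9) in HF. The groups did not overlap, and the rise was 2.29 ± 0.29 on the log2 scale (adjusted p = 0.000319). Cyp2j5, a renal cytochrome P450 epoxygenase, rose by 1.82 ± 0.27 (adjusted p = 0.000156), with 0.556, 1.35, 1.07, 0.823 and 0.347 CPM in flat, 2.05 to 4.88 CPM (median 3.44) in RT and 1.30 to 3.68 CPM (median 2.51) in HF; the lowest HF library lay inside the flat range. Ggt1, the gamma-glutamyl transferase of the proximal tubule brush border, rose by 1.16 ± 0.19, from 0.989, 1.42, 0.859, 1.06 and 0.753 CPM in the flat libraries to 1.98 to 3.20 CPM (median 2.61) in RT and 1.61 to 2.41 CPM (median 1.91) in HF, with no overlap.

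The other large rises were of varied function. Msln (mesothelin, a surface glycoprotein of mesothelium) rose by 1.57 ± 0.26, Cckar (the cholecystokinin A receptor) by 1.47 ± 0.21, Tspan8 (a tetraspanin of epithelia) by 1.40 ± 0.22, Atg9b (a lipid scramblase of autophagosome formation) by 1.40 ± 0.27 and Clca3a2 (a chloride channel regulator) by 1.17 ± 0.23 on the log2 scale. All 5 were weak, and the highest flat value among them was 2.22 CPM, for Msln in NT 1. Kif12, a kinesin of renal epithelium, stood higher, at 3.71, 5.48, 4.78, 3.00 and 5.04 CPM in flat, 9.75 to 15.7 CPM (median 11.1) in RT and 8.05 to 12.9 CPM (median 9.50) in HF, a log2 fold change of 1.30 ± 0.15 (adjusted p = 1.48e-05). Plau, the secreted urokinase that activates plasminogen and so matrix proteolysis, was the most abundant of the 12 largest rises. It stood at 23.9, 33.6, 28.2, 20.6 and 23.6 CPM in the flat libraries, 45.1 to 90.2 CPM (median 70.9) in RT and 39.0 to 79.0 CPM (median 50.3) in HF, with no overlap and a log2 fold change of 1.23 ± 0.20 (adjusted p = 0.00284). Sema6a, a transmembrane semaphorin, completed the 12 with 1.18 ± 0.25, and its lowest HF library lay inside the flat range.

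The rises with the smallest p were moderate in size. Cdsn, corneodesmosin, an adhesion protein of cornified epithelium, stood at 25.1, 19.4, 17.7, 17.8 and 18.4 CPM in flat, 31.7 to 35.9 CPM (median 33.0) in RT and 26.5 to 35.0 CPM (median 29.6) in HF. NT 1 was the highest flat library and still below all 12 textured ones, and the log2 fold change was 0.68 ± 0.07 (adjusted p = 2.86e-07). Plxnd1, a semaphorin receptor, stood at 69.8, 62.8, 67.3, 64.4 and 67.0 CPM in flat, 80.3 to 91.8 CPM (median 83.2) in RT and 74.5 to 87.6 CPM (median 81.6) in HF (log2 fold change 0.32 ± 0.04, adjusted p = 1.7e-06). Bmp6, a bone morphogenetic protein, rose by 0.35 ± 0.04, Sema7a, a membrane-anchored semaphorin that binds integrins, by 0.49 ± 0.06, and Slc43a2, a transporter of large neutral amino acids, by 0.51 ± 0.07 on the log2 scale. For all 5 genes the textured and flat libraries did not overlap.

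**Figure D2:**
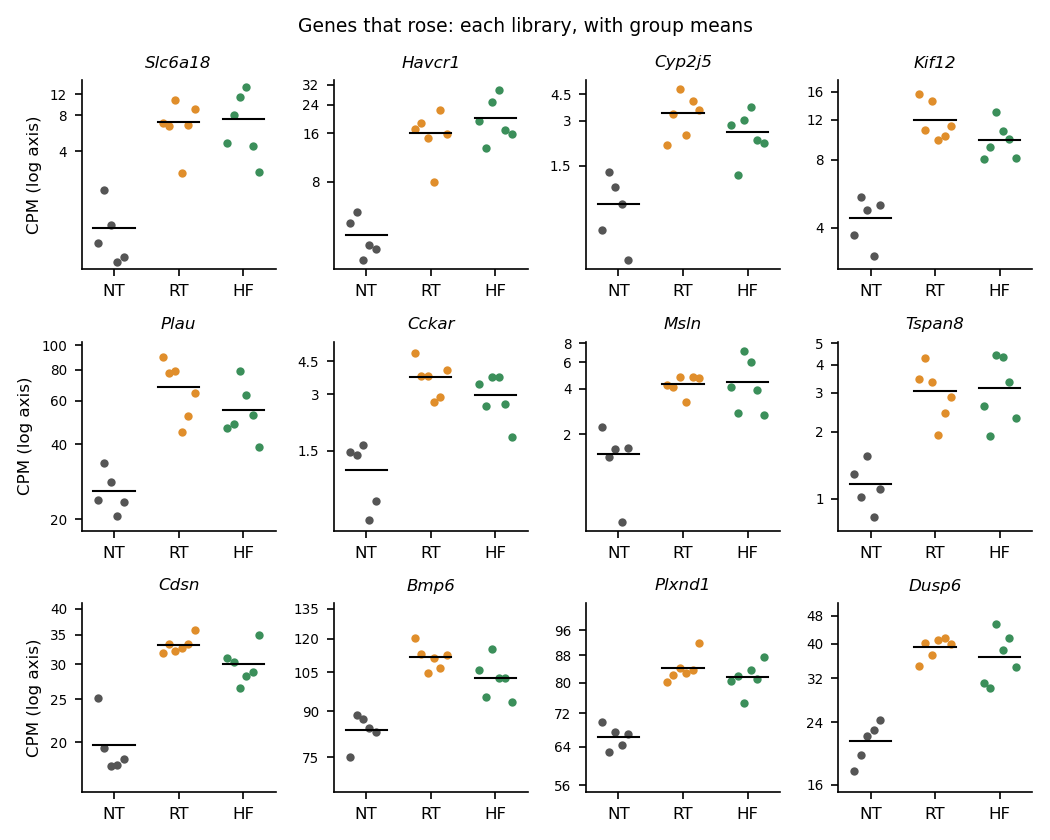
CPM (log axis, a separate scale for each gene) of 12 genes that rose, 1 point for each library with NT in grey, RT in orange and HF in green; black lines are arithmetic group means. Textured points lie above flat points in every panel except Cyp2j5, where 1 HF library overlaps.

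Contractile SRF and MRTF target genes rose in number and none fell. Of 26 tested members, 11 rose and 23 had a positive log2 fold change; the median was 0.12, beside -0.0023 over all genes tested, with 0.15 for RT minus NT and 0.08 for HF minus NT. Acta2, smooth muscle actin, stood at 253, 287, 202, 266 and 296 CPM in the flat libraries, 323 to 392 CPM (median 364) in RT and 309 to 418 CPM (median 363) in HF. All textured libraries lay above all flat ones, with a log2 fold change of 0.48 ± 0.09 (adjusted p = 0.00533). Srf itself, the transcription factor that binds CArG boxes, stood at 83.0, 75.2, 78.4, 88.5 and 79.8 CPM in flat, 87.9 to 101 CPM (median 95.6) in RT and 86.5 to 100.5 CPM (median 89.3) in HF, and rose by 0.20 ± 0.04 (adjusted p = 0.00185) with 1 flat library, NT 4, inside the textured range. Vcl, vinculin, which links integrin adhesions to actin, rose by 0.24 ± 0.04 and Itga5, the fibronectin receptor alpha subunit, by 0.20 ± 0.03, both with no overlap between textured and flat libraries. Flnc, a filamin that crosslinks actin, rose by 0.20 ± 0.03 and Myl9, a myosin regulatory light chain, by 0.65 ± 0.16 from 3.34, 3.25, 2.09, 2.53 and 5.15 CPM in flat to 3.96 to 5.33 CPM (median 4.95) in RT and 4.14 to 7.39 CPM (median 5.17) in HF, which overlap. The remaining rises were Cnn2, Pdlim5, Filip1l, Fhl1 and Lmod1.

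Of the wider actin list, 8 of 54 tested members rose and none fell, with a median of 0.03. Besides Flnc and Myl9 these were the cytoplasmic actins Actb (0.15 ± 0.03) and Actg1 (0.13 ± 0.03), the crosslinker Actn4 (0.11 ± 0.03), the filament elongation factor Enah (0.15 ± 0.03), and Pfn1 (profilin, which supplies actin monomers) and Rhob (a small GTPase), at 0.12 and 0.20 on the log2 scale. Actb stood at 1452, 1472, 1374, 1417 and 1576 CPM in the flat libraries, 1538 to 1753 CPM (median 1650.4) in RT and 1514 to 1698 CPM (median 1570.2) in HF; only NT 5 among flat libraries reached into the textured range. These counts rested in part on NT 3, which was the lowest flat library for Acta2, Actb and Actn4. Without it 6 members of the SRF list and 2 of the actin list rose. The calls of Myl9, Actg1 and Actn4 ended without NT 3 and without 1 other flat library each (highest adjusted p 0.0941, 0.0893 and 0.0965), and that of Actb without NT 3 (0.0513). Actg1 shares 51.1% of its 100-base windows with other genes, and Vcl 25.5% of its exonic bases with an overlapping gene, so their counts are uncertain to that extent.

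The CArG box, the motif that SRF binds, was looked for on both strands of RefSeq promoters on GRCm38.p6, taken from 250 bases before to 50 after each gene's start. It was in 1.29% of 13103 promoters of tested genes, in 2.66% of 414 promoters of genes that rose and in 0.844% of 237 promoters of genes that fell. Of the SRF and MRTF list, 7 of 24 genes with a promoter held one. These were Cnn2, Fhl1, Filip1l, Myl9, Srf and Vcl, which rose, and Fhl2, which did not pass. The 250 bases before the start of 4 genes that rose are shown because they carry the motif beside the change, from 5′ to 3′ on the gene's strand with the CArG box in capitals. They are Srf at chr17:46556163-46556412 on the minus strand, Vcl at chr14:20929148-20929397 on the plus strand, Actg1 at chr11:120348496-120348745 on the minus strand and Myl9 at chr2:156775214-156775463 on the plus strand.
Srf: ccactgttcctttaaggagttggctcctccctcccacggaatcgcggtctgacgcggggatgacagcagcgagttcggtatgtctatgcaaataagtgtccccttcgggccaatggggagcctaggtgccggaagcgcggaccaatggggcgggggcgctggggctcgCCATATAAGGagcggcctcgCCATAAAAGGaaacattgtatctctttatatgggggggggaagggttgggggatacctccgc
Vcl: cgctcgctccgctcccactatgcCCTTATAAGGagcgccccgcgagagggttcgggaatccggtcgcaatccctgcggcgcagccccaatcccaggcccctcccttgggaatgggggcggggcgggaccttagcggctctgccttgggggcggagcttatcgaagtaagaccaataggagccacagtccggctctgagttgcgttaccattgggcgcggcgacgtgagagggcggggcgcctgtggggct
Actg1: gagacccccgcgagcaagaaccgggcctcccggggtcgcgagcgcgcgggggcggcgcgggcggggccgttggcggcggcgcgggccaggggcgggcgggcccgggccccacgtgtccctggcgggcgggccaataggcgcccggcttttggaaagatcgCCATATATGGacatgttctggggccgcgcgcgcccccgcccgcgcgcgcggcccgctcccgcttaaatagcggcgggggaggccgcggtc
Myl9: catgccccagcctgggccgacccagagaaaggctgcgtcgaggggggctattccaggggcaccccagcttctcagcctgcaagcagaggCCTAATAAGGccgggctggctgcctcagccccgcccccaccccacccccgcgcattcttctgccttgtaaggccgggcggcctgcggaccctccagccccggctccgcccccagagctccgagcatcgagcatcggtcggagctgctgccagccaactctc
Srf has 2 matches, 82 and 62 bases before its start, and the match of Actg1 lies 90, that of Myl9 161 and that of Vcl 227 bases before the start. A match of letters does not show that a factor binds there.

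Immediate early genes had the highest median of the lists described. Of 28 tested members 6 rose, none fell, and 25 had a positive log2 fold change, with a median of 0.33 (taken separately, 0.19 for RT minus NT and 0.30 for HF minus NT). Atf3, a stress-induced factor, stood at 7.79, 10.2, 7.08, 7.94 and 7.70 CPM in flat, 11.1 to 15.4 CPM (median 12.8) in RT and 8.74 to 13.3 CPM (median 10.3) in HF and rose by 0.52 ± 0.10 (adjusted p = 0.00110), with HF and flat libraries overlapping. Jun, a subunit of AP-1, rose by 0.35 ± 0.08, Maff, a small Maf factor, by 0.47 ± 0.09, Myc by 0.34 ± 0.07, Ier5, a regulator induced by serum and stress, by 0.28 ± 0.04 and Btg2, an antiproliferative regulator, by 0.50 ± 0.11 on the log2 scale. For Jun and Ier5 all textured libraries lay above all flat ones.

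The level of this list also moved with the replicate number. Its summed level was 1020 CPM in NT 1, 1285 in NT 5, 1176 in RT 1 and 1186 in HF 1, and the library numbered 1 was the lowest of its group on every surface. At each number from 1 to 5 the RT and the HF library exceeded the flat library with that number, by 0.19 to 0.32 on the log2 scale in 10 of 10 comparisons. Each flat library serves for both RT and HF, so the 10 comparisons are not independent, and the numbers were not taken as pairs. Fos, the partner of Jun in AP-1, shows the same layout. It stood at 5.68, 8.46, 10.4, 14.3 and 20.4 CPM in NT 1 to NT 5, 8.44 to 27.4 CPM (median 19.1) in RT and 9.48 to 31.2 CPM (median 25.0) in HF, a log2 fold change of 0.78 ± 0.34 that did not pass (adjusted p = 0.246). Egr1, a zinc finger factor of the same class, had 0.81 ± 0.32 (adjusted p = 0.188). In 10 of 10 comparisons of libraries with 1 number, which share the flat libraries in the same way, Fos and Egr1 were higher on the textured surface. No library on the flat surface is numbered 6, and the RT and HF libraries with that number were among the higher ones. With only numbers 1 to 5, the counts over all genes were 690 changed, 421 rose and 269 fell.

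Of 18 genes of the ERK feedback list, which hold its signal in check, 5 rose and none fell, with a median of 0.15. Dusp6, the phosphatase that removes the activating phosphates from ERK, stood at 17.5, 19.4, 21.9, 22.9 and 24.4 CPM in the flat libraries, 34.5 to 41.5 CPM (median 40.1) in RT and 30.0 to 45.3 CPM (median 36.4) in HF. All textured libraries lay above all flat ones, and the log2 fold change was 0.83 ± 0.09 (adjusted p = 4.38e-05). Dusp1, a phosphatase of several MAP kinases, rose by 0.50 ± 0.11, Etv5, an ERK-induced ETS factor, by 0.55 ± 0.15, Spry1, an inhibitor of receptor kinase signalling, by 0.14 ± 0.04, and Errfi1, an inhibitor of EGF receptors, by 0.16 ± 0.04. In the list of EGF receptor ligands and receptors, which also holds the inhibitor Errfi1, 4 of 15 tested genes rose and none fell. These were the ligands Nrg1 (0.30 ± 0.06) and Tgfa (0.72 ± 0.17), the receptor Erbb4 (0.89 ± 0.23) and Errfi1, which both lists hold. Tgfa stood at 2.66, 5.28, 3.01, 3.12 and 3.13 CPM in flat, 4.26 to 6.62 CPM (median 5.52) in RT and 3.85 to 8.45 CPM (median 5.54) in HF; NT 2 was the only flat library inside the textured range. Without NT 3, 2 of the feedback genes rose, and without NT 2, 3 did. The calls of Dusp1, Spry1, Etv5, Tgfa and Erbb4 each ended without 1 library or more (highest adjusted p 0.0743, 0.122, 0.104, 0.0631 and 0.0952).

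**Figure D3:**
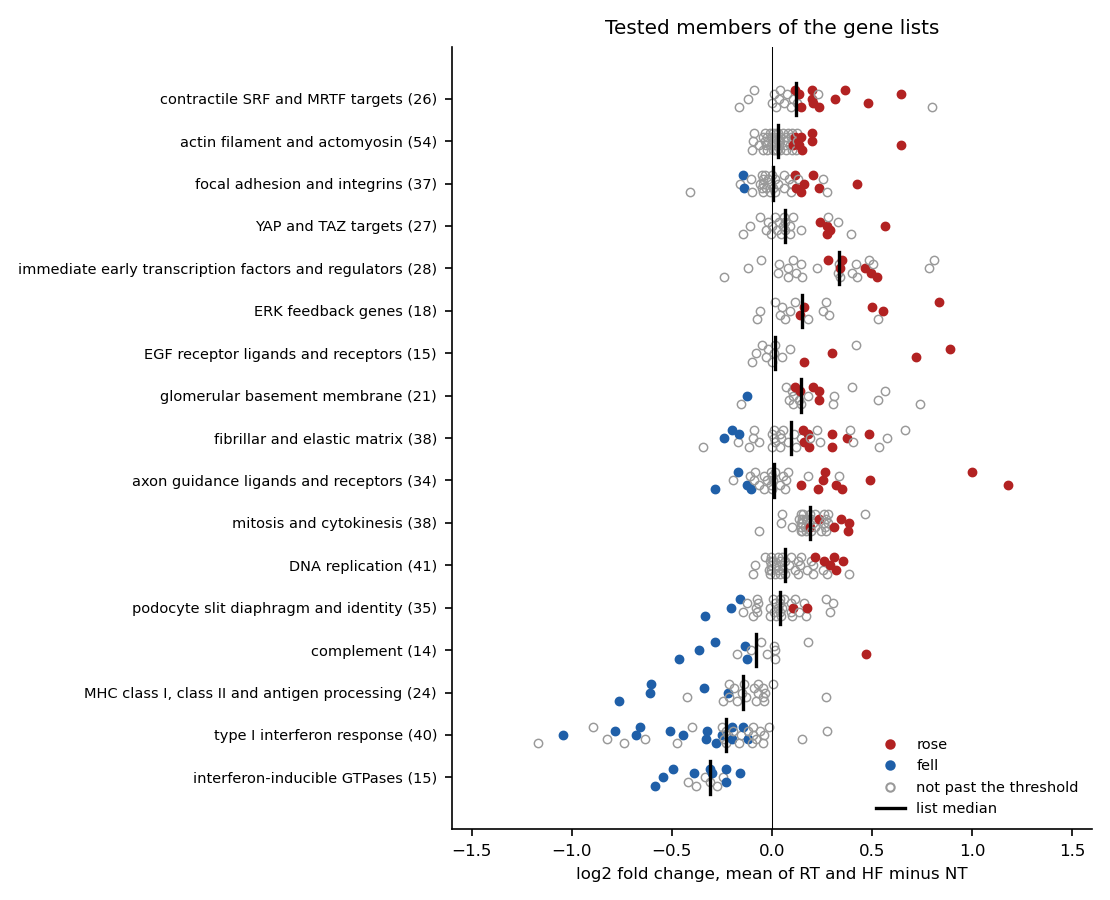
Log2 fold change of textured minus flat (x axis) for each tested member of 17 gene lists (y axis, number of tested members in parentheses). Red points rose, blue points fell, open points did not pass the threshold, and the black bar is the list's median. The immediate early and mitosis lists sit to the right of 0 and both interferon lists to the left.

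Of 27 YAP and TAZ targets, genes of growth and matrix contact, 5 rose and none fell, with a median of 0.07. Ccn1, a secreted matricellular protein, stood at 335, 530.2, 460.1, 585 and 596 CPM in flat, 628 to 831 CPM (median 760.4) in RT and 572 to 883 CPM (median 769.6) in HF; NT 1 was the lowest library and NT 4 and NT 5 lay inside the HF range, and the rise was 0.57 ± 0.13 on the log2 scale (adjusted p = 0.0220, and 0.0755 without NT 3). F3, tissue factor, rose by 0.29 ± 0.04, Tgfb2, a TGF-beta ligand, by 0.28 ± 0.04, Ccdc80, a matrix protein, by 0.24 ± 0.04 and Fjx1 by 0.28. The best known targets Ccn2 and Ankrd1 had 0.40 and 0.28 and did not pass. Of 37 focal adhesion and integrin genes 7 rose (Itga5, Vcl, Itgav, Src, Bcar1, Lims1 and Lims2) and 2 fell, with a median of 0.0045; without NT 3, 4 rose. The falls were Cav1, the main caveolin of non-muscle cells, at -0.14 ± 0.03 and Tns2, a tensin, at -0.14. Among 21 mechanosensitive channels, lamins and nuclear linkers, the channel Piezo1 rose by 0.13 ± 0.04 and the inner nuclear membrane protein Tor1aip1 fell, with -0.12 ± 0.03; the call of Piezo1 ended without any of 13 libraries and that of Tor1aip1 without any of 10 (highest adjusted p 0.129 and 0.131).

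Basement membrane genes had mostly positive values. Of 21 tested genes of the basement membrane list 5 rose and 1 fell, 19 had a positive log2 fold change, and the median was 0.14. Hspg2, the heparan sulfate proteoglycan perlecan, stood at 933, 946, 923, 1004 and 800.1 CPM in flat, 996 to 1137 CPM (median 1104) in RT and 1013 to 1174 CPM (median 1075) in HF, with NT 4 inside the textured range and NT 5 lowest (log2 fold change 0.24 ± 0.04, adjusted p = 0.000590). Lama5, the laminin alpha chain of the mature glomerular basement membrane, rose by 0.24 ± 0.05, and the collagen chains Col4a5 and Col4a6 and the proteoglycan Agrn by 0.21, 0.12 and 0.14. Lamb2, the beta chain that pairs with Lama5 in the mature membrane, fell. It stood at 704, 674, 683, 741 and 697 CPM in flat, 614 to 635 CPM (median 620.3) in RT and 632 to 699 CPM (median 653) in HF, a log2 fold change of -0.13 ± 0.03 (adjusted p = 0.00704), and all 6 RT libraries lay below the flat range while HF overlapped it. Col4a3 and Col4a4, the other chains of the mature collagen network, had 0.56 and 0.53 and did not pass. The number of rises in this list was 2 without NT 3, 3 without NT 5, 9 without HF 6 and 11 without NT 2.

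Of 38 fibrillar and elastic matrix genes 8 rose and 3 fell, with a median of 0.10. Fn1, fibronectin, the ligand of Itga5, stood at 3583, 2847, 2683, 2923 and 2656 CPM in flat, 3627 to 4131 CPM (median 4028) in RT and 3373 to 4105 CPM (median 3662) in HF. NT 1 stood apart at the top of the flat group and inside the HF range, the other 4 flat libraries lay below all textured ones, and the log2 fold change was 0.38 ± 0.06 (adjusted p = 0.00118). Col8a1, a short-chain collagen, rose by 0.30 ± 0.04 and Loxl1, a lysyl oxidase that crosslinks elastin, by 0.18 ± 0.03, both without overlap between textured and flat libraries. Loxl2, a lysyl oxidase that crosslinks collagen, rose by 0.48 ± 0.11 and Fbn1, the microfibril protein fibrillin 1, by 0.30 ± 0.06. The others that rose were Col5a1, Fbln2 and Tnc. The falls were the proteoglycan Vcan (-0.24 ± 0.06), the metalloproteinase inhibitor Timp1 (-0.20 ± 0.05) and the latent TGF-beta binding protein Ltbp4 (-0.17 ± 0.04); each of these calls ended without any of 3 flat libraries (highest adjusted p 0.0739, 0.0667 and 0.0776).

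Interferon-induced genes had mostly negative values. Of 40 tested genes of the type I interferon response 14 fell and none rose, 38 had a negative log2 fold change, and the median was -0.23 (-0.25 for RT minus NT, -0.21 for HF minus NT). Zbp1, a sensor of Z-form nucleic acids, stood at 4.39, 5.62, 6.12, 6.59 and 9.49 CPM in flat, 3.08 to 4.44 CPM (median 4.07) in RT and 3.56 to 5.90 CPM (median 3.75) in HF. NT 5 was the highest library and NT 1 and NT 2 lay inside the textured range, and the log2 fold change was -0.68 ± 0.14 (adjusted p = 0.00228). Oasl2, an oligoadenylate synthetase-like protein, fell by 0.66 ± 0.17 and Usp18, which removes the ubiquitin-like ISG15, by 0.51 ± 0.12 on the log2 scale. Sp100, a nuclear body protein, was the member with the smallest p, at 29.9, 30.3, 33.4, 33.1 and 39.3 CPM in flat, 23.5 to 29.2 CPM (median 26.2) in RT and 24.0 to 29.7 CPM (median 26.3) in HF, with no overlap (log2 fold change -0.33 ± 0.06, adjusted p = 0.000457). Isg15 itself had -0.74 ± 0.28 and did not pass (adjusted p = 0.149), but did with no filter beyond 1 count (0.00196).

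NT 5 stood apart in this list. Its summed level was 1843 CPM, against 1370 to 1533 CPM in the other flat libraries and 1349 to 1434 CPM in the 12 textured ones, so NT 1 lay within the textured range. Isg15 stood at 1.85, 2.37, 2.52, 1.53 and 7.70 CPM in NT 1 to NT 5, and Oasl2 at 19.2, 20.0, 20.9, 25.3 and 44.3 CPM. Without NT 5, 7 of the 40 members fell, the median was -0.12, and Isg15 had -0.11 (adjusted p = 0.812). By limma voom 9 of the 40 fell. Without NT 5 the calls of Usp18 and Oas1a ended (adjusted p = 0.0533 and 0.195). The call of Oasl2 was kept without NT 5 but ended without NT 4 and without several textured libraries (highest adjusted p 0.0723).

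Interferon-inducible GTPases, which attack the membranes of vacuoles that hold pathogens, were the list with the lowest median. All 15 tested members had a negative log2 fold change, 9 fell, and the median was -0.31 (-0.38 for RT minus NT, -0.30 for HF minus NT). Tgtp1, a T-cell specific GTPase, stood at 51.5, 59.1, 67.2, 66.3 and 65.7 CPM in flat, 36.5 to 44.3 CPM (median 39.1) in RT and 40.4 to 47.8 CPM (median 42.7) in HF. Textured and flat libraries did not overlap, and at -0.58 ± 0.05 (adjusted p = 4.52e-08) it had the smallest p of all genes that fell. Tgtp1 and Tgtp2 share most of their sequence with each other or further genes (83.3% and 80.4% of windows), so the reads cannot be assigned between them. Gbp9, a guanylate binding protein, stood at 94.7, 114, 133, 121 and 121 CPM in flat, 89.8 to 98.8 CPM (median 94.6) in RT and 89.2 to 97.6 CPM (median 94.5) in HF; the flat library NT 1 lay inside the textured range and the other 4 above it (log2 fold change -0.31 ± 0.05, adjusted p = 0.000273). Gbp3 fell by 0.54 ± 0.14, Gbp5 by 0.49, Irgm2 by 0.30 and Irgm1 by 0.16 ± 0.04, and Gbp7, Gvin1 and Tgtp2 also fell. Gbp11, of the same family but outside the list, had -0.71 ± 0.19. Without NT 1, 14 of the 15 fell. The call of Gbp3 ended without any of 14 libraries (highest adjusted p 0.110) and that of Gbp11 without any of 5 (0.121).

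The core of the interferon-stimulated response element (ISRE), searched as GAAANNGAAA on both strands, was in 2.96% of all promoters, 6.75% of those of genes that fell and 2.42% of those of genes that rose. All 9 GTPase genes with a promoter in the table held it, 7 of which fell, and 12 of 29 type I interferon genes did, 2 of which fell (Ifi203 and Oas1a). The promoters of Irgm1, at chr11:48871421-48871670 on the minus strand, and Gbp3, at chr3:142559794-142560043 on the plus strand, are shown as examples, with the matched letters in capitals; each has 2 overlapping matches close to the start.
Irgm1: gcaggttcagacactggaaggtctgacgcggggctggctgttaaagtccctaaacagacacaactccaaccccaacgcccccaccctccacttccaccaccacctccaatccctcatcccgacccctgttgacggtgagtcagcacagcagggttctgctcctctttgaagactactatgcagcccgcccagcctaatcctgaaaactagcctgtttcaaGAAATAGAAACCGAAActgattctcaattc
Gbp3: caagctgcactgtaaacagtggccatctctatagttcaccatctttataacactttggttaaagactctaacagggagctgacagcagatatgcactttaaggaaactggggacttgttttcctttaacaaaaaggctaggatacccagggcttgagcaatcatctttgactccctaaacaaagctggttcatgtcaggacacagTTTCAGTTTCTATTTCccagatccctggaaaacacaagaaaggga
The matches begin 30 and 24 bases before the start of Irgm1, and 45 and 39 bases before that of Gbp3, where they lie on the opposite strand. Other motifs differed less between the sets. AP-1 (TGANTCA) was in 5.56% of promoters of genes that rose, 6.33% of those that fell and 5.17% of all, and TEAD (GGAATG) in 13.5%, 10.5% and 12.3%. The CRE (TGACGTCA) was in 2.90%, 2.11% and 3.00%, E2F (TTTCCCGC, TTTCGCGC, TTTGCCGC or TTTGGCGC) in 4.83%, 2.53% and 3.83%, and the NF-kB motif in 11.1%, 8.02% and 10.4%.

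Genes of the MHC class II pathway were also among the falls. Of 24 tested genes of MHC and antigen processing 5 fell and none rose, 22 had a negative log2 fold change, and the median was -0.15. All 5 belong to the class II pathway: H2-Aa and H2-Eb1, the alpha and beta chains, Cd74, the invariant chain, and H2-DMa and H2-DMb1, which help load peptide. H2-Aa stood at 12.8 CPM in NT 1 and 21.5 to 25.3 CPM in NT 2 to NT 5, 8.25 to 12.7 CPM (median 10.8) in RT and 12.8 to 17.2 CPM (median 14.2) in HF, a log2 fold change of -0.77 ± 0.12 (adjusted p = 0.000877), the largest fall of a gene named by rule. H2-Eb1 stood at 14.8, 29.0, 30.7, 29.1 and 32.8 CPM in flat, 14.7 to 18.6 CPM (median 15.7) in RT and 17.3 to 22.5 CPM (median 18.8) in HF, and Cd74 at 4.88, 13.4, 13.7, 12.6 and 11.9 CPM in flat, 5.72 to 8.51 CPM (median 6.41) in RT and 7.17 to 8.99 CPM (median 8.28) in HF. For all 3 genes NT 1 was far below the other flat libraries and inside or below the textured range, while NT 2 to NT 5 lay above it. Without NT 1, 15 of the 24 members fell; without NT 3 or NT 4, 2 did, and without any of 7 other libraries, 3 did. The call of Cd74 ended without any of 14 libraries (highest adjusted p 0.152), and that of H2-Eb1 without NT 3 (0.0618). Class I genes did not pass, with -0.09 for H2-K1 and -0.04 for H2-D1.

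Of 14 complement genes 5 fell and 1, C1qtnf6, a secreted C1q-domain protein, rose by 0.47 ± 0.11. Besides C1ra and C1s1 the falls included C3, the central component, at -0.29 ± 0.07, and C1s2, a protease paralog of C1s1, at -0.37 ± 0.09. C3 stood at 1883, 2244, 2462, 2352 and 1938 CPM in flat, 1545 to 1701 CPM (median 1614) in RT and 1700.5 to 2388 CPM (median 1951) in HF, so that RT lay below the flat range and HF overlapped it; its HF minus RT difference was 0.29 (adjusted p = 0.216). With RT and HF given 1 common mean, 1 complement gene fell, and without NT 2, NT 3, NT 4 or any of 5 textured libraries among RT 1 to RT 4 and HF 2, 2 did, and without HF 4 or HF 5, 3 did. C4bp, a soluble complement inhibitor, is no member of the list and fell evenly, at 526, 575, 558, 582 and 539.8 CPM in flat, 461 to 479 CPM (median 467) in RT and 448 to 509 CPM (median 475) in HF, without overlap (log2 fold change -0.24 ± 0.03, adjusted p = 1.07e-05). Of 22 chemokines and cytokines 3 rose and none fell. These were Ccl7 (0.50 ± 0.08) and Ccl2 (0.35 ± 0.09), which attract monocytes, and Lif (0.45 ± 0.11), a cytokine of the interleukin 6 family. Without RT 2, 5 of them rose, and the call of Ccl2 ended without any of 5 libraries, NT 3 and NT 5 among them (highest adjusted p 0.0618).

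**Figure D4:**
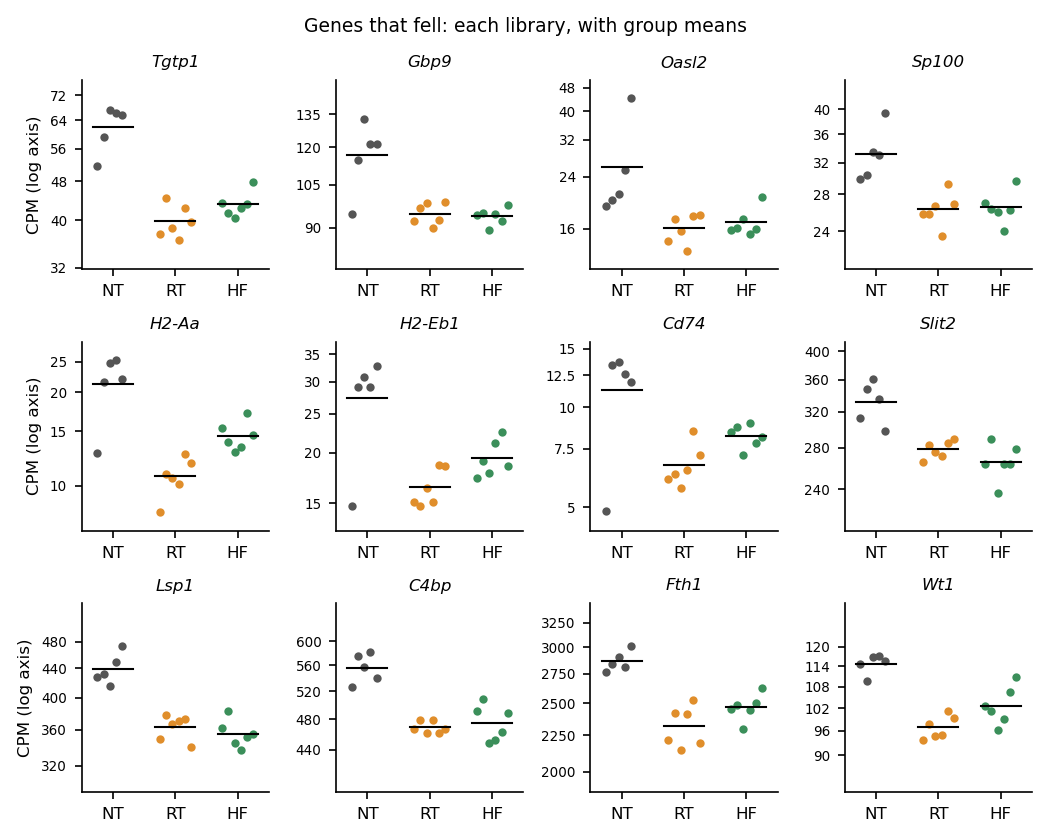
CPM (log axis, a separate scale for each gene) of 12 genes that fell, 1 point for each library with NT in grey, RT in orange and HF in green; black lines are arithmetic group means. In Gbp9, H2-Aa, H2-Eb1 and Cd74 the leftmost flat point, NT 1, lies near the textured points, and in Oasl2 the rightmost flat point, NT 5, lies above all others.

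The podocyte genes that passed changed in both directions. Of 35 tested genes of the slit diaphragm and podocyte identity, 2 rose and 3 fell, with a median of 0.04. Over all genes tested, 2.70% rose and 1.68% fell. Another 9 of the list's 44 genes were too low to test. Wt1, the zinc finger factor that podocytes need throughout life, stood at 115, 109.7, 117, 117 and 116 CPM in flat, 93.8 to 101 CPM (median 96.3) in RT and 96.1 to 111 CPM (median 102) in HF. All 6 RT libraries lay below the flat range and the highest HF library reached into it, and the log2 fold change was -0.20 ± 0.03 (adjusted p = 0.000136). Podoplanin (Pdpn), a surface sialoglycoprotein of podocytes, also fell, with 167, 178, 173, 183 and 174 CPM in flat, 151 to 169 CPM (median 160.4) in RT and 148 to 158 CPM (median 154) in HF (-0.16 ± 0.03, adjusted p = 0.00112). Clic5, a foot process protein that works with ezrin, fell with -0.34 ± 0.08. The rises were Actn4, an actin crosslinker mutated in inherited glomerular disease, and Nes, the intermediate filament nestin, at 0.17 ± 0.04; both calls ended without NT 3 or NT 4 (highest adjusted p 0.0965 and 0.0943). Nphs1, nephrin of the slit diaphragm, had 0.29 ± 0.14 (adjusted p = 0.262), Podxl, the main sialoprotein of the podocyte surface, 0.04 ± 0.04 (adjusted p = 0.685) and Synpo, synaptopodin, -0.07 ± 0.04 (adjusted p = 0.279), and none of the 3 passed. Without NT 1, Synpo passed at -0.12 (adjusted p = 0.0134).

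Markers of other cell types were followed because they could move with the surface. Of 11 immune markers 5 (Adgre1, Itgam, Cd3e, Tyrobp and C1qa) were at 0 in all 17 libraries, and Ptprc, Lyz2 and Cd79a had 3, 10 and 16 counts over all 17 together. The summed level of the 11 was 38.6 to 44.0 CPM in NT, 47.5 to 60.8 in RT and 41.8 to 55.8 in HF, nearly all of it Csf1r, which rose by 0.29 ± 0.06. Of 14 mesangial and smooth muscle markers 9 were tested and Acta2 rose. Their sum was 713 to 813 CPM in NT, 829 to 904 in RT and 848 to 929 in HF. Most of it was Pdgfrb (447 to 496 CPM over all libraries) and Acta2 (202 to 418 CPM). Ren1 was at 0, and Myh11 and Des did not exceed 1 CPM in any library. Endothelial Kdr and Tie1 were at 0. The endothelial sum was 77.3 to 83.0 CPM in NT, 75.9 to 84.1 in RT and 76.2 to 84.9 in HF. Nearly all of it was Ehd3 (70.5 to 80.4 CPM). Of 18 tubular markers 11 were tested and Slc6a18, Cyp2j5 and Ggt1 rose; Slc34a1, Aqp2 and Epcam were at 0, while Cdh16 (922 to 1030 CPM) and Lrp2 (270 to 484 CPM) were abundant on every surface. Of 8 parietal epithelial markers tested Ncam1 and Cldn1 (-0.17 ± 0.04) fell and Krt18 was at 0; the call of Cldn1 ended without NT 1, NT 3 or NT 4 (highest adjusted p 0.0896). The fibroblast sum was 24.4 to 54.3 CPM in NT, 48.8 to 71.8 in RT and 40.1 to 73.3 in HF, and none of its 6 tested members passed. Whether these levels bear on the gene groups that moved with them was not tested.

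**Figure D5:**
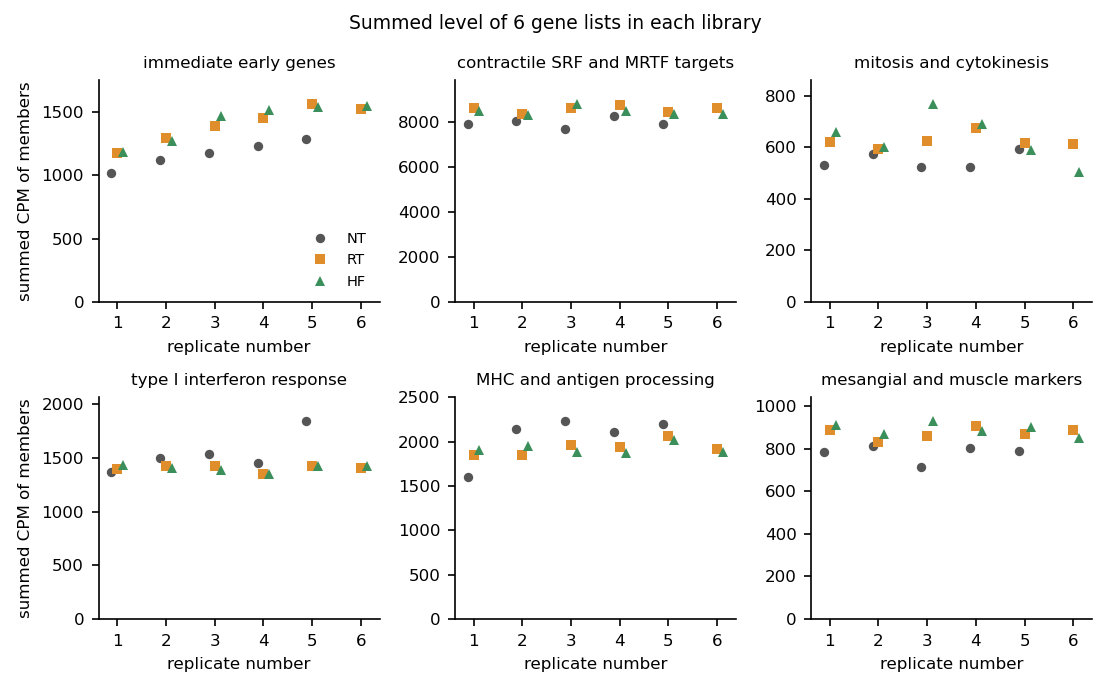
Summed CPM of all members of 6 gene lists (y axis, from 0) against replicate number (x axis), with NT as grey circles, RT as orange squares and HF as green triangles. The immediate early sum is lowest at number 1 in every group, NT 5 is the high point of the interferon panel and NT 1 the low point of the MHC panel.

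Guidance genes, which control how cells attach and extend processes, had 9 rises and 4 falls among 34 tested members, with a median of 0.0093. Besides Plxnd1, Sema7a and Sema6a, the semaphorin Sema5a rose. It stood at 42.6, 66.6, 38.8, 45.1 and 40.0 CPM in flat, 69.2 to 116 CPM (median 103) in RT and 52.3 to 133 CPM (median 84.8) in HF, with NT 2 alone of the flat libraries reaching into the textured range, a log2 fold change of 1.00 ± 0.20 (adjusted p = 0.0101). Epha2, an ephrin receptor, rose by 0.27 ± 0.05, and Epha4, Unc5b, Sema4d and Sema3b rose by 0.23, 0.15, 0.25 and 0.35. Slit2, the secreted ligand of Robo receptors, fell. It stood at 313, 348, 361, 336 and 298 CPM in flat, 265 to 289 CPM (median 279) in RT and 237 to 289 CPM (median 264) in HF, all textured libraries below all flat ones (-0.28 ± 0.04, adjusted p = 4.38e-05). The semaphorin and VEGF coreceptor Nrp1 (-0.17 ± 0.04), the secreted Sema3f (-0.10 ± 0.03) and the ligand Efnb2 (-0.13 ± 0.03) also fell, and without NT 1 or NT 4 the list had 2 falls (highest adjusted p 0.0684 for Sema3f and 0.0903 for Efnb2). Of 31 Notch, BMP and TGF-beta genes 4 rose, which were Tgfb2, the Notch ligand Jag2 (0.55 ± 0.12), the procollagen protease Bmp1 (0.14 ± 0.03) and the Notch-modifying Lfng (0.22), and Bmpr1a, a BMP receptor, fell (-0.11), a call that ended without any of 9 libraries, NT 2 and NT 3 among them. Without NT 5, 4 of the 31 fell.

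Cell division genes had mostly positive values, and most of them did not pass. Over all genes tested, 2.70% rose. Of 38 mitosis and cytokinesis genes 37 had a positive log2 fold change, 6 rose and the median was 0.19 (0.18 for RT minus NT, 0.20 for HF minus NT). Cenpe, a kinetochore motor, rose by 0.31 ± 0.06, with 17.9, 20.7, 18.4, 18.8 and 20.1 CPM in flat, 22.6 to 26.8 CPM (median 23.8) in RT and 21.2 to 27.2 CPM (median 22.3) in HF and no overlap. Racgap1 and Cdk1 rose by 0.24 ± 0.06 and 0.19 ± 0.05, and Ccnb1, Nek2 and Cep55 also rose. The list's sum was 522 to 594 CPM in NT, 592 to 677 in RT and 504 to 770 in HF, the widest range; HF 6 was its lowest library, and without it 14 members rose, while 2 did without NT 3 or NT 4, 3 without RT 4 or HF 4 and 10 without NT 5. Of 41 DNA replication genes 6 rose and none fell, with a median of 0.07: Uhrf1 (0.32 ± 0.06), which recruits maintenance methylation, Mcm5 (0.29 ± 0.07) of the replicative helicase, Rrm2 (0.36 ± 0.09) of ribonucleotide reductase, Mcm2, Mcm3 and Pole. Without NT 1, 1 member rose, and without NT 3, 2 did. Of 28 cell cycle inhibitors and p53 targets, Cdkn1a, the p21 inhibitor (0.13 ± 0.04), Gdf15 (0.31 ± 0.05), Perp (0.21 ± 0.04), Bbc3 (0.19 ± 0.05) and Btg2 rose, and Sesn1 fell (-0.14 ± 0.03). The call of Cdkn1a ended without any of 9 libraries (highest adjusted p 0.191), and without NT 3 the list had 3 rises. The calls of Racgap1 (without NT 4), Cdk1 (without NT 3 or NT 4), Mcm5 and Rrm2 (each without NT 1 or NT 3) and Bbc3 (without NT 2 or NT 3) also ended, with highest adjusted p of 0.0891, 0.130, 0.0563, 0.0628 and 0.0847.

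Stress and metabolic lists had 1 call each, and the organelle lists had more. Over all genes tested, 2.70% rose and 1.68% fell. Of 31 cholesterol synthesis genes only Acaca, the acetyl-CoA carboxylase of fatty acid synthesis, passed (0.31 ± 0.08), a call that ended without any of 11 libraries. Of 32 ATF4 and unfolded protein genes only Nupr1 passed, with -0.27 ± 0.07, also lost without any of 12 libraries, and of 30 glycolysis and hypoxia genes only Ndrg1, lost without NT 4; without NT 1, 3 of the 30 fell. Atf5, a factor of the mitochondrial stress response, is no member of these lists and fell without overlap, at 517, 499.6, 507, 539 and 592 CPM in flat, 421 to 455 CPM (median 436) in RT and 417 to 485 CPM (median 449.6) in HF (-0.26 ± 0.03, adjusted p = 1.48e-05). Fth1, the ferritin heavy chain that stores iron, stood at 2770.1, 2836, 2904, 2815 and 3012 CPM in flat, 2148 to 2522 CPM (median 2315) in RT and 2297 to 2629 CPM (median 2468) in HF and fell by 0.26 ± 0.04 on the log2 scale (adjusted p = 1.71e-05). Lsp1, an actin-binding protein, fell with -0.29 ± 0.03 (adjusted p = 7.4e-07), and its libraries did not overlap either. Of 38 lysosome and autophagy genes 6 rose and none fell, among them Grn, progranulin (0.12 ± 0.03, adjusted p = 0.0746 without NT 3), Lamp1 (0.10) and Psap (0.11). Of 12 mitochondrially encoded genes 11 had a negative value and mt-Nd6 (-0.20 ± 0.03) and mt-Nd3 (-0.60 ± 0.12), subunits of complex I, fell; 97.6% of the windows of mt-Nd3 also occur in other genes, and without NT 5 5 of the 12 fell. Of 81 ribosomal protein genes Rps18, Rplp0 and Rpl15 rose, while 24 did without NT 5, 5 without RT 1 and 1 without NT 3.

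Of 18 kidney injury markers 4 rose (Havcr1, Gdf15, Ccl2 and the chaperone Clu, 0.39 ± 0.07) and Timp1 fell. Lcn2, a widely used injury marker, had -0.15, and Krt19 and Sox9 had 0.05 and 0.05; none of these passed. Fgl1, a secreted fibrinogen-like protein, was among the 10 largest falls at 2.78, 3.11, 2.36, 3.18 and 1.85 CPM in flat, 1.21 to 1.83 CPM (median 1.62) in RT and 1.52 to 2.30 CPM (median 1.88) in HF (-0.63 ± 0.17, adjusted p = 0.0225), but did not pass without NT 2 or NT 4 (0.0910). An identifier named Myl12b, which is a second record of that light chain gene and lies wholly within another gene's exons, also stood among them (-0.64 ± 0.12) and is uncertain for that reason. Among other genes named, part of the transcript also occurs elsewhere for Loxl2 (43.5% of 100-base windows), Acaca (42.8%), Oas1a (40.9%) and Rpl15 (28.3%). The same holds for Rplp0 (18.3%), Etv5 (17.2%), H2-DMb1 (13.7%) and Rps18 (12.8%). Another gene overlaps the exons of Piezo1 (24.6% of bases), Spry1 (24.4%), Fbn1 (20.1%), Csf1r (15.1%), Tor1aip1 (12.9%), Hexa (12.8%) and Nphs1 (11.8%).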

How the data were processed

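Bulk RNA-seq of 17 libraries was analysed from the deposited table of whole-number read counts per gene, which the authors made from paired reads with poly-T selection and a non-directional kit, per the labels' protocols. HISAT2 2.0.5 and featureCounts 1.5.0-p3 are named per the submitters' processing notes, with the mm39 build; the annotation release and strand setting are not given in the sources used here. The gene lists and their members were chosen with earlier results of these data known.

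Counts were filtered with filterByExpr, given TMM factors and modelled in edgeR 4.0.16 (R 4.3.3) as 3 group means, with robust quasi-likelihood dispersions. The contrast was the mean of RT and HF minus NT, with Benjamini-Hochberg adjusted p under 0.05 over all genes. CPM are counts over the TMM-scaled library total in M. Alternatives used DESeq2 1.42.0, limma 3.58.1, other scalings and filters, 1 common mean for RT and HF, a replicate block, numbers 1 to 5 only, and each library left out. P-values measure the spread between libraries, which may be technical.

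Of 56748 identifiers, 52073 matched a symbol in GENCODE M21, and 0.58% of counts lay in the rest. No 2 libraries were identical. Genes named in the text were, among called genes with an ordinary name and a mean log2 CPM reaching 1, the 12 largest rises, the 10 largest falls, the 5 smallest p in each direction and up to 3 members of each list by p, with Nphs1, Synpo, Wt1 and Podxl always. All other named genes were chosen after their values were seen. Promoters are RefSeq's on GRCm38.p6; 10281 of 15192 distinct names of tested genes had one. Positions of the counted genes were not used here. Results for some genes are not reported here.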

Additional observations from a re-analysis of the deposited data

Results flagged for a closer look

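Among the 667 genes called in textured minus flat, 11 also differed between the textured surfaces by edgeR's quasi-likelihood test, and 10 of them are given here. Of those that rose, HF minus RT on the log2 scale was -0.54 for Acsm2, -0.52 for Cbs, -0.43 for Kitl and -0.21 for Armc10, and 0.44 for Agt and 0.16 for Hexa. Of those that fell it was 0.24 for C1ra, 0.23 for Ndrg1, 0.22 for C1s1 and -0.15 for Ncam1.

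A single library stood apart from its group, by the gap to its neighbour relative to the group's range, in 30 of 423 groups checked over 141 genes (7.09%). Chance gives about 1 in 20. NT 1 did so in 7 genes and NT 5 in 5. NT 1 was low for Cd74 (4.88 CPM, next 11.9), H2-Eb1 (14.8, next 29.0), Ifi203 (20.2, next 32.6), Jun (40.3, next 53.4) and Ccl2 (41.2, next 56.2), and high for Cdsn (25.1, next 19.4) and Fn1 (3583, next 2923). NT 5 was high for Isg15 (7.70 CPM, next 2.52), Oasl2 (44.3, next 25.3) and Usp18 (16.7, next 10.1), and low for Vcl (234 CPM, next 289) and Efnb2 (306, next 335). NT 2 was high for Atf3 (10.2 CPM, next 7.94), Sema5a (66.6, next 45.1) and Tgfa (5.28, next 3.13). In the other flat libraries NT 3 was high for mt-Nd6 (725 CPM) and low for Sema7a (28.1 CPM), and NT 4 was low for Racgap1 (21.4 CPM).

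On the textured surfaces HF 3 was high for Ccl2 (86.6 CPM), Lif (12.2 CPM) and Sema7a (52.6 CPM), HF 6 for Oasl2 (20.5 CPM) and Sema3f (504 CPM), and HF 1 for Zbp1 (5.90 CPM), and HF 2 was low for Clu (13.2 CPM). RT 6 was high for Col8a1 (223 CPM) and Plxnd1 (91.8 CPM), RT 2 for Jag2 (6.32 CPM) and RT 5 for Sesn1 (157 CPM), and RT 5 was low for Hspg2 (996 CPM). Why these libraries stood apart was not tested.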

How the results depend on the processing

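Alternatives were run for 141 genes, which are not all genes named in the text. Most of these had been chosen because they passed in the same libraries, so a kept direction is no independent check. Each of the 141 kept its direction under all alternatives. Of these genes' values, 2164 with 1 library left out and 1357 under other settings stayed on the same side of the threshold, 232 and 50 lost their call, and 1 and 3 gained one. The number of genes changed was 667, 609 by limma voom, 907 by DESeq2, 918 with no filter beyond 1 count and 610 with 1 common mean for RT and HF. The share of rises was 61.6% with TMM scaling, 55.7% with upper quartile scaling and 55.8% with library totals. With 1 library left out, 387 to 925 genes changed, 249 to 494 rose and 138 to 431 fell. All textured libraries then lay beyond all flat ones in 135 to 302 genes, a count that leaving a library out cannot lower. HF minus RT gave 32 genes, 84 by DESeq2, 148 with no filter, and 14 to 89 with 1 library left out.

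With a replicate block, 1059 genes changed (641 rose, 418 fell) and 125 differed between HF and RT; 12 of 28 immediate early genes rose, and Fos and Egr1 passed (adjusted p = 2.40e-07 and 3.37e-07 by edgeR), while Nphs1 (0.0976) and Synpo (0.190) did not. Same-numbered libraries deviated together only weakly: over 16 pairs r ran from 0.0037 to 0.219 with a median of 0.047, 2 pairs exceeded 0.1, and 7 of 17 libraries correlated best with their own number. Because r was weak, the numbers were not taken as pairs. All 16 r were positive, however, and the immediate early sum moved with the number. How many matches unrelated libraries would give was not computed. Genes under about 1 CPM rest on few reads, and 5 flat libraries limit the contrasts with NT; the causes of these shifts were not tested.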

Other observations

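Several of the largest rises lay under the expression level required of a gene named by rule. The examples were chosen after their values were seen. Sel1l3 averaged 0.144 ± 0.0706 CPM in NT (SD, n = 5), 1.39 ± 0.445 in RT and 1.65 ± 0.632 in HF (SD, n = 6 each), which is a difference of 3.34 ± 0.38 (SE of the log2 value, adjusted p = 1.05e-06 by edgeR's quasi-likelihood test). Ugt1a2, a glucuronosyltransferase, rose by 2.28 ± 0.42, Cd36, a fatty acid transporter, by 1.69 ± 0.31, Hsd11b1, which activates glucocorticoids, by 1.65 ± 0.46, and Slc26a1, a sulfate transporter, by 1.08 ± 0.21 on the log2 scale (SE). Tinag, a protein of the tubular basement membrane, rose by 1.35 ± 0.26. Hnf4a, a transcription factor of proximal tubule identity, averaged 0.299 ± 0.207 CPM in NT (SD, n = 5), 0.823 ± 0.323 in RT and 0.708 ± 0.222 in HF (SD, n = 6 each) and rose by 1.40 ± 0.37 (SE of the log2 value, adjusted p = 0.0235). At these levels a library holds few reads of each gene, so the size of the changes is less certain than that of abundant genes. Sel1l3 and Hnf4a were too low on the flat surface to pass the expression filter without their textured libraries. Their p-values are therefore no independent support for the rises.

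Other genes among the 10 smallest p in their direction were at moderate levels. Ntrk3, the receptor of neurotrophin 3, averaged 18.6 ± 2.25 CPM in NT (SD, n = 5), 26.8 ± 2.40 in RT and 25.3 ± 1.27 in HF (SD, n = 6 each) and rose by 0.49 ± 0.07 (SE of the log2 value, adjusted p = 1.48e-05). Nr2f2, the nuclear receptor COUP-TFII, averaged 247 ± 3.24 CPM in NT (SD, n = 5), 214 ± 7.15 in RT and 213 ± 8.88 in HF (SD, n = 6 each) and fell, the log2 difference being -0.21 ± 0.03 (SE of the log2 value, adjusted p = 2.31e-05). Osmr, the oncostatin M receptor subunit, had -0.27 ± 0.04, and Adra1b, an alpha-1 adrenergic receptor, -0.23 ± 0.03 on the log2 scale (SE), and both fell.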
